A study of Mus musculus with 12 samples.

Results

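The matrix metalloproteinases (MMPs), the ADAM, ADAMTS and ADAMTS-like proteins and the tissue inhibitors of metalloproteinases (TIMPs) were followed in the left ventricle (LV) of adult offspring that had developed in a diabetic or a non-diabetic pregnancy. Members were the protein-coding genes with an Mmp, Timp, Adam, Adamts or Adamtsl symbol that had at least 10 reads in at least 3 of the 12 samples. Of 83 such family genes in the files, 49 met the rule, among 13410 of 21560 protein-coding genes that met the same count rule. They comprised all 4 TIMPs, 8 of 16 secreted MMPs, 4 of 6 membrane-type MMPs, 12 of 33 ADAM genes, 16 of 19 ADAMTS genes and all 5 ADAMTS-like genes. Just inside the rule were Mmp3, with 10 reads or more in 3 samples and at most 22, and Adamts20, in 8 samples. Just outside it was Mmp27, which reached 11 reads in 1 sample.

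MMPs are zinc-dependent enzymes that cut collagens, gelatins, proteoglycans and many non-matrix proteins. Secreted MMPs act in the extracellular space, and membrane-type MMPs act at the cell surface, where MMP14 also activates the proenzyme of MMP2. TIMPs bind the active site of MMPs and of some ADAM and ADAMTS enzymes. ADAM proteins include sheddases that release the outer part of membrane proteins, ADAMTS enzymes trim procollagens and cleave proteoglycans, and ADAMTS-like proteins lack the protease domain and bind fibrillin-rich microfibrils. In the heart the balance of these enzymes and inhibitors is known for its part in the turnover of the collagen network after injury and overload.

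The samples were LVs of FVB mice aged 12 weeks, 3 per group. Wild-type (Wt) and Hif1a+/- offspring came from Wt dams, either non-diabetic or made diabetic with streptozotocin before mating, and from sires carrying 1 Hif1atm1jhu null allele in all cells. All offspring, controls included, therefore had a Hif1a+/- sire, and the heterozygotes keep 1 intact allele. The 3 animals of a group came from several litters, which the labels do not name. In the text, values per sample are in the order of the labelled animals, 25, 42 and 89 for Wt non-diabetic, 50, 7 and 80 for Wt diabetic, 14, 32 and 44 for Hif1a+/- non-diabetic, and 66, 72 and 77 for Hif1a+/- diabetic.

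Reads assigned to genes amounted to 16132442 to 39812939 per sample, of which the members took 0.119 to 0.161%. Levels are CPM, read counts scaled to a common library size after TMM normalisation. The libraries were made from 3′ ends, where reads should not scale with transcript length, so levels of different genes are given as CPM. Where they are compared, values per kilobase of the longest annotated transcript are added for reference only. If reads do not scale with length, dividing by it lowers genes with long transcripts. Hif1a transcript was higher in Hif1a+/- than in Wt LVs, with a mean of 85.7 CPM against 61.5 CPM after non-diabetic pregnancy, but 3′ reads lie outside the early coding exon that this null allele is known to lack and do not check the genotype. The labels call the animals female and the methods male. Y-linked transcripts exceeded Xist in 11 samples, and Xist exceeded them in Hif1a+/- diabetic animal 72, so results of members that rest on this animal are also given without it. Cardiomyocyte markers were abundant in every sample, with a sum of 81400 to 91200 CPM, while atrial markers summed to 25.2 to 70.8 CPM.

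**Figure D1:**
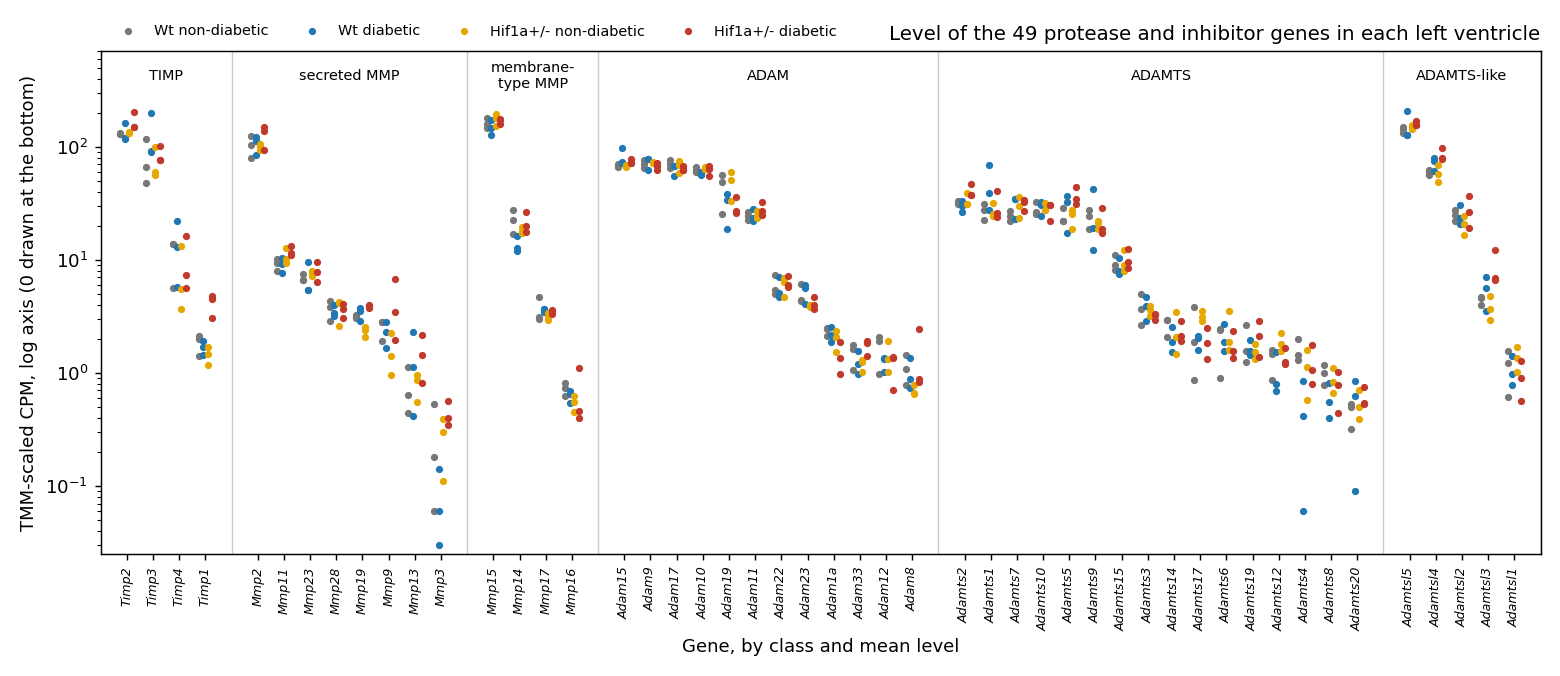
Level of each of the 49 members in the 12 LVs, as TMM-scaled CPM on a log axis, with genes grouped by class and ordered by mean level, and with 1 point per sample coloured by group. Mmp15, Adamtsl5, Timp2 and Mmp2 had mean levels above 100 CPM, and Mmp3 had the lowest mean, 0.257 CPM, with 1 sample at 0.

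The most abundant member by CPM was Mmp15, a membrane-type MMP, with a mean of 164 CPM over the 12 samples. It was followed by Adamtsl5, which encodes a microfibril-associated protein, at 152 CPM, by Timp2 at 141 CPM, by Mmp2, the 72-kDa gelatinase A, at 109 CPM, and by Timp3, the matrix-bound inhibitor, at 90.2 CPM. Per kilobase of longest transcript the same 5 genes led, at 37.9 for Timp2, 36.9 for Adamtsl5, 35.5 for Mmp2, 31.9 for Mmp15 and 19.1 for Timp3. The most abundant ADAM genes, Adam15, Adam9, Adam17 and Adam10, which encode widely expressed membrane proteases, were at 72.6, 70.8, 66.4 and 62.0 CPM. Adam9, Adam10 and Adam17 were also among the steadiest members, with a highest sample at most 1.40 times the lowest. The collagenase gene Mmp13 and the stromelysin gene Mmp3 were low, at 1.07 and 0.257 CPM. Mmp9, gelatinase B, known from neutrophils and macrophages, was at 2.59 CPM, far below Mmp2.

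Calls across the genome set the scale for the members. edgeR's quasi-likelihood test with Benjamini-Hochberg adjustment covered 14706 genes, including 48 members. Mmp3 fell below the filter on low counts. At an adjusted p under 0.1 it called 0 of 48 members and 0% of all genes in each of the 7 comparisons. These were the 4 pairs that differ in pregnancy or in genotype alone, diabetic Hif1a+/- against non-diabetic Wt, the genotype by pregnancy interaction and any difference among the 4 groups. DESeq2, the tool of the study, called 5 members after diabetic pregnancy in Hif1a+/-, where it called 1.44% of all genes. The 5 were Timp1, Adamtsl3, Adamtsl4, Mmp19 and Mmp9. They are also the family members that the study lists as changed on these samples, so this is not independent evidence. DESeq2 called 3 of them without Hif1a+/- diabetic animal 66 or 72, 2 without animal 77, and 1 without Hif1a+/- non-diabetic animal 32 or 44. edgeR called 1, Timp1, without Wt diabetic animal 7 or 80 or Hif1a+/- diabetic animal 72. With no filter on low counts it called these 5 together with Adam19 and Adamts5, beside 2.19% of all genes, and in Wt it called Adam19, Adamts1, Adamts4, Mmp14 and Timp3, beside 0.476%.

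The contrast of diabetic with non-diabetic pregnancy in Hif1a+/- had the most members with a small p. At an unadjusted p under 0.05, edgeR picked out 10 of 48 members, 20.8%, against 12.0% of all genes. Of these 10, Timp1, Timp2, Mmp9, Mmp19, Adam8, Adamts2, Adamts5, Adamtsl3 and Adamtsl4 were higher after diabetic pregnancy, and Adam19 was lower. Without animal 72 there were 10 of 49, against 8.58% of all genes, with Adam1a in place of Adam19. In 9 members all 3 diabetic samples lay above all 3 non-diabetic ones, 18.8% of those tested against 11.2% of all genes, and in 1 member, Adamts17, all 3 lay below, 2.08% against 13.2% of all genes. In the same contrast in Wt, 4 members had an unadjusted p under 0.05, namely Mmp14, Adamts4, Adamts1 and Adam15, 8.33% against 2.78% of all genes, and DESeq2 called 0 members and 0.0148% of genes. The 2 contrasts have no sample in common, and whether their counts of members differ was not tested.

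Timp1 encodes a secreted inhibitor of most MMPs that is known to be induced in injured and fibrotic myocardium. The gene (ENSMUSG00000001131) lies on the plus strand of GRCm38 at chrX:20870166-20874735. Its level was 1.99, 1.41 and 2.13 CPM in Wt non-diabetic, 1.43, 1.91 and 1.71 CPM in Wt diabetic, 1.71, 1.18 and 1.46 CPM in Hif1a+/- non-diabetic, and 4.52, 3.04 and 4.77 CPM in Hif1a+/- diabetic LVs. The 3 diabetic Hif1a+/- samples were above all 9 others, and the other 3 groups overlapped each other. Timp1 was the 1 member in 48 with this order, 2.08% against 1.18% of all genes. Diabetic exceeded non-diabetic Hif1a+/- LVs by 1.49 ± 0.24 on the log2 scale (SE, n = 3 per group), a 2.81-fold difference, with an adjusted p of 0.124 by edgeR and 0.000503 by DESeq2.

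The remaining comparisons of Timp1 had the same form. Against diabetic Wt the log2 difference was 1.28 ± 0.24 (SE), with an adjusted p of 0.52 by edgeR and 0.0175 by DESeq2, and DESeq2 called 0.155% of all genes in that contrast. Against non-diabetic Wt it was 1.16 ± 0.24 (SE), with adjusted p of 0.315 and 0.0217, beside 0.453% of genes called by DESeq2. DESeq2 made no call against diabetic Wt without Wt diabetic animal 50 or Hif1a+/- diabetic animal 66 or 77, nor any against non-diabetic Wt without Wt non-diabetic animal 42 or Hif1a+/- diabetic animal 77. In Wt, diabetic and non-diabetic pregnancy differed by -0.12 on the log2 scale, with an interaction of 1.61 ± 0.35 (SE) whose adjusted p was 0.998 by edgeR and 0.477 by DESeq2, which called 0% of genes. Over the 4 groups together DESeq2 gave Timp1 an adjusted p of 3.42e-05, and edgeR 0.279. Animal 72 had the lowest Timp1 of its group, and without it the difference in Hif1a+/- was 1.67 ± 0.24 (SE), with an adjusted p of 0.0575 by edgeR.

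**Figure D2:**
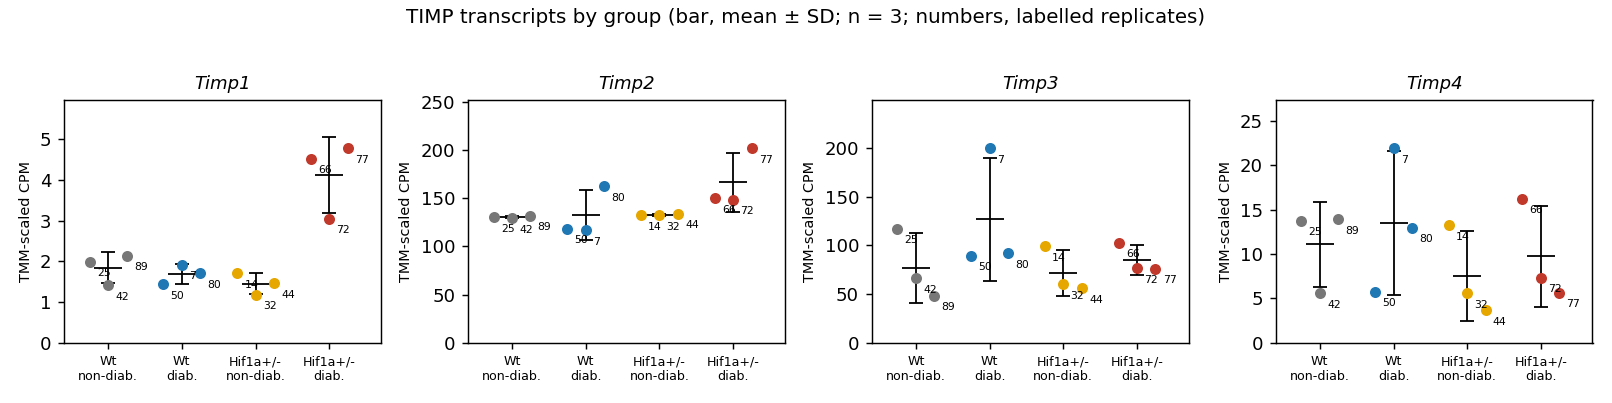
TIMP transcripts in TMM-scaled CPM for each LV by group, with labelled animal numbers, and with the mean and SD of 3 samples per group as bars. Timp1 in the 3 diabetic Hif1a+/- samples, 3.04 to 4.77 CPM, was above the 9 others, 1.18 to 2.13 CPM, whereas the groups overlapped for Timp3 and Timp4.

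The sequences just upstream of Timp1, Adamtsl4 and Adamtsl3 are shown because Hif1a encodes a subunit of a factor whose known core motif is ACGTG or GCGTG, and because DESeq2 called these members. Mmp9 and Mmp19 had no entry. Each is the 250 bases before the annotated start in RefSeq on GRCm38.p6, written 5′ to 3′ on the strand of the gene, with capitals marking ACGTG or GCGTG on either strand.
Timp1, chrX:20869916-20870165, plus strand: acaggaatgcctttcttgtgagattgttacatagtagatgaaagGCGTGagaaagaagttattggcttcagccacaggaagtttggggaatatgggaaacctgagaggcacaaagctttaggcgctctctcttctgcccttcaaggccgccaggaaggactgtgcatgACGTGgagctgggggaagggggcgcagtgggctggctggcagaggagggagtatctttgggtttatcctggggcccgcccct
Adamtsl4, chr3:95687918-95688167, minus strand: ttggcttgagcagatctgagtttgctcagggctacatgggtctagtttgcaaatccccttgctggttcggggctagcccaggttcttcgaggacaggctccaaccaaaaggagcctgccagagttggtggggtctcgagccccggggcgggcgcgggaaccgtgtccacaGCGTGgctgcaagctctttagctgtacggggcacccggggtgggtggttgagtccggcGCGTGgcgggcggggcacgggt
Adamtsl3, chr7:82335444-82335693, plus strand: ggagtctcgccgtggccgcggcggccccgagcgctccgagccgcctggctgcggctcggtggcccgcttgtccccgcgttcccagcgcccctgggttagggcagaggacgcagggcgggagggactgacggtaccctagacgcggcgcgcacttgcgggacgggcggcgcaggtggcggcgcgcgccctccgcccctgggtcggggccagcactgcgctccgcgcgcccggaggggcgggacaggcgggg
The window of Timp1 held ACGTG from position -82 and GCGTG from position -206, that of Adamtsl4 held GCGTG from -80 and from -22, and that of Adamtsl3 held neither, counting from -1 at the base before the start. Among 32851 promoters in the table, 16.6% held ACGTG and 28.2% held GCGTG in the same 250 bases on either strand. Of the 34 promoters that belonged to 31 members, 8 held ACGTG, or 23.5%, and 18 held GCGTG, or 52.9%. The AP-1 motif TGANTCA was in 6.75% of all promoters and in those of Adam19, Mmp13 and Mmp3 among members. The palindrome CACGTG, which contains ACGTG, was in 6.02% of all promoters and in none of the sequences above. These matches describe letters in a window and were not tested for binding.

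The other TIMPs differed from Timp1 in level and in pattern. Timp2, which also takes part in the activation of MMP2 by MMP14, was at 130.5, 129.3 and 131.6 CPM in Wt non-diabetic, 118.5, 116.9 and 162.6 CPM in Wt diabetic, 132.2, 132.5 and 134.2 CPM in Hif1a+/- non-diabetic, and 150.0, 148.4 and 201.9 CPM in Hif1a+/- diabetic LVs. The diabetic Hif1a+/- samples lay above both non-diabetic groups, while Wt diabetic animal 80 was above 2 of them. The log2 difference from non-diabetic Hif1a+/- was 0.33 ± 0.13 (SE), with an adjusted p of 0.383 by edgeR and 0.326 by DESeq2, and it was 0.17 without animal 77. Timp3 ranged over the 12 samples from 48.1 to 200 CPM and Timp4, the TIMP known for its high level in heart, from 3.67 to 21.9 CPM. Both spanned most of this range inside single groups, and their group means of 71.8 to 127 CPM and 7.50 to 13.5 CPM gave no unadjusted p under 0.05 in the filtered edgeR fit, whereas the fit with no filter called Timp3 in Wt and for genotype after diabetic pregnancy.

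Mmp19, a secreted MMP that cuts basement membrane proteins, was at 3.18, 3.23 and 3.07 CPM in Wt non-diabetic, 2.86, 3.75 and 3.54 CPM in Wt diabetic, 2.1, 2.42 and 2.56 CPM in Hif1a+/- non-diabetic, and 3.98, 3.74 and 3.93 CPM in Hif1a+/- diabetic LVs. The non-diabetic Hif1a+/- samples were the lowest of the 12, and the diabetic ones overlapped only with Wt diabetic animal 7. Diabetic against non-diabetic pregnancy in Hif1a+/- gave a log2 difference of 0.72 ± 0.16 (SE), with an adjusted p of 0.194 by edgeR and 0.0616 by DESeq2. Against non-diabetic Wt it was 0.30 on the log2 scale. Non-diabetic Hif1a+/- against non-diabetic Wt differed by -0.42 ± 0.17 (SE), the member with the smallest p there, with an adjusted p of 1 by edgeR. In that genotype contrast 1 of 48 members had an unadjusted p under 0.05, or 2.08%, against 0.959% of all genes, and DESeq2 called 0 members and 0.00369% of genes.

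Mmp9 was at 2.80, 1.91 and 2.82 CPM in Wt non-diabetic, 2.31, 1.67 and 2.80 CPM in Wt diabetic, 2.26, 0.96 and 1.41 CPM in Hif1a+/- non-diabetic, and 3.44, 6.73 and 1.94 CPM in Hif1a+/- diabetic LVs. The highest value was that of animal 72, and animal 77 of the same group lay within the range of the other groups. With all samples the log2 difference in Hif1a+/- was 1.35 ± 0.41 (SE), with an adjusted p of 0.295 by edgeR and 0.0801 by DESeq2. Without animal 72 it was 0.80 ± 0.36 (SE), with an adjusted p of 0.572 by edgeR, and the difference from non-diabetic Wt went from 0.68 to 0.13. Markers of neutrophils, a known source of Mmp9, summed to 7.29, 4.66 and 9.01 CPM in diabetic Hif1a+/- animals 66, 72 and 77. Animal 72, with the highest Mmp9 of that group, had its lowest neutrophil sum, and animal 77 the reverse. The sum was 1.36 to 2.57 CPM in non-diabetic Hif1a+/- LVs. Of the 10 markers, 3 passed the edgeR filter, and 2, Ly6g and Elane, stayed under 10 reads in every sample. Their part in the Mmp9 level was not tested. Wt non-diabetic animal 25 had the highest neutrophil sum, 26.7 CPM, and 2.80 CPM of Mmp9. Red cell markers were also highest in that animal, at 7320 CPM against 185 to 1770 CPM in the other samples. The effect of blood in that sample was not tested.

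The remaining secreted MMPs showed no group apart from the rest. Mmp2 was at 79.9 to 124.6 CPM in Wt non-diabetic, 83.9 to 123 CPM in Wt diabetic, 94.7 to 105 CPM in Hif1a+/- non-diabetic and 93.5 to 150 CPM in Hif1a+/- diabetic LVs, with overlap between all groups. Mmp11, stromelysin 3, had means of 9.19, 9.07, 10.8 and 11.9 CPM in the same order, with all 3 diabetic Hif1a+/- samples above all 6 Wt samples. Its log2 difference from diabetic Wt was 0.40 ± 0.15 (SE), with an adjusted p of 0.862 by edgeR. Without animal 72, its highest sample, this was 0.32 ± 0.17 (SE), with an unadjusted edgeR p of 0.0853. Mmp23, whose product is anchored in the membrane until it is cleaved although it is grouped here by name with the secreted enzymes, had group means of 6.80 to 7.90 CPM. Mmp28, epilysin, had means of 3.52 to 3.7 CPM, and Mmp13 had means of 0.739 to 1.48 CPM. Mmp3 reached means of 0.258 CPM in Wt non-diabetic, 0.0644 CPM in Wt diabetic, 0.268 CPM in Hif1a+/- non-diabetic and 0.438 CPM in Hif1a+/- diabetic LVs. It was below the filter of the edgeR fit of all 12 samples, and DESeq2 gave it an adjusted p in 5 comparisons, of which 0.747 was the lowest. Without the filter edgeR called it for genotype after diabetic pregnancy, where Wt diabetic samples were at 0 to 0.14 CPM.

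Among membrane-type MMPs, Mmp14 stood apart in Wt. Its level was 16.94, 22.51 and 27.50 CPM in Wt non-diabetic, 11.95, 16.28 and 12.85 CPM in Wt diabetic, 17.29, 17.91 and 19.66 CPM in Hif1a+/- non-diabetic, and 20.01, 26.54 and 17.58 CPM in Hif1a+/- diabetic LVs. The 3 Wt diabetic samples were the lowest of all 12. Diabetic against non-diabetic pregnancy in Wt gave a log2 difference of -0.70 ± 0.19 (SE), a fold of 0.614, with an adjusted p of 1 by edgeR and 0.579 by DESeq2. Hif1a+/- against Wt after diabetic pregnancy gave 0.64 ± 0.19 (SE), with an adjusted p of 0.862 by edgeR, and the interaction was 0.93 ± 0.26 (SE), the second smallest interaction p among members, with an adjusted p of 0.998. Without animal 72 these were 0.46 and 0.75.

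The other 3 membrane-type enzymes varied little between groups. Mmp15 had means of 162, 149, 176 and 168 CPM in Wt non-diabetic, Wt diabetic, Hif1a+/- non-diabetic and Hif1a+/- diabetic LVs, with SDs of 17.2, 22.8, 21.8 and 8.29 CPM (n = 3). Mmp17, a glycosylphosphatidylinositol-anchored MMP, had means of 3.19 to 3.61 CPM and Mmp16 means of 0.542 to 0.723 CPM. In the interaction 6 of 48 members had an unadjusted p under 0.05, or 12.5%, against 2.52% of all genes. These were Timp1, Mmp14, Mmp19, Mmp9, Adamts4 and Adamts2, each with a larger diabetic minus non-diabetic difference in Hif1a+/- than in Wt. Without animal 72 the filter passed all 49 members, and 8 had such a p, against 2.43% of all genes. Mmp9 was no longer among them, at 0.97 with an unadjusted edgeR p of 0.0707, and Adam8, Adamtsl3 and Mmp3 were.

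**Figure D3:**
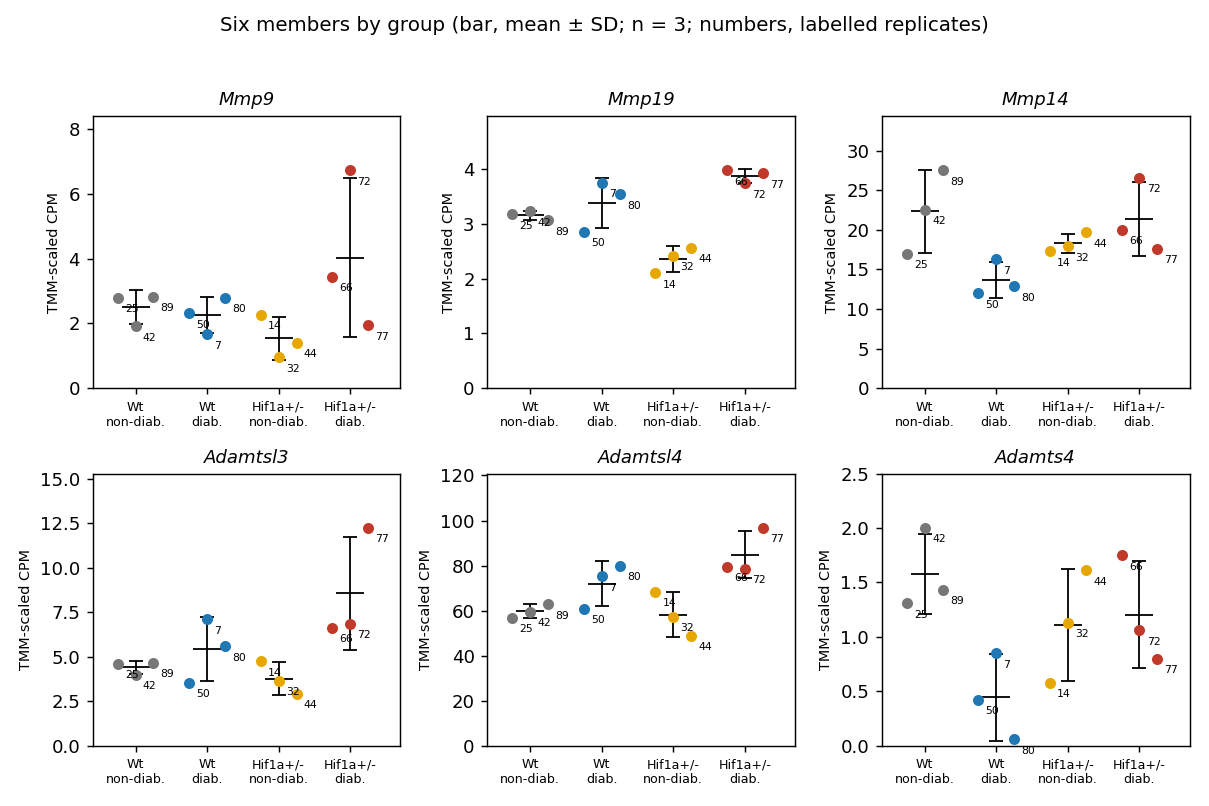
Levels in TMM-scaled CPM of Mmp9, Mmp19, Mmp14, Adamtsl3, Adamtsl4 and Adamts4 in each LV by group, with labelled animal numbers, and with the mean and SD of 3 samples as bars. Mmp14 in Wt diabetic LVs, 11.95 to 16.28 CPM, was below every other sample, and the high Mmp9 mean of diabetic Hif1a+/- LVs contained 6.73 CPM in animal 72.

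The ADAMTS-like genes held 2 of the 5 members called by DESeq2. Adamtsl4 (ENSMUSG00000015850), on the minus strand at chr3:95676201-95687917, encodes a protein known for anchoring the lens through fibrillin microfibrils. It was at 56.73, 59.57 and 62.86 CPM in Wt non-diabetic, 60.72, 75.23 and 79.81 CPM in Wt diabetic, 68.48, 57.34 and 48.72 CPM in Hif1a+/- non-diabetic, and 79.49, 78.47 and 96.69 CPM in Hif1a+/- diabetic LVs. Both diabetic groups had higher means than their controls, 71.9 against 59.7 CPM in Wt and 84.9 against 58.2 CPM in Hif1a+/-, and only the latter pair did not overlap. The log2 difference in Hif1a+/- was 0.54 ± 0.13 (SE), with an adjusted p of 0.215 by edgeR and 0.0275 by DESeq2, and it was 0.51 ± 0.13 (SE) against non-diabetic Wt, with 0.42 and 0.0985.

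Adamtsl3 (ENSMUSG00000070469), on the plus strand at chr7:82335694-82614450, was at 4.61, 4.00 and 4.66 CPM in Wt non-diabetic, 3.55, 7.12 and 5.60 CPM in Wt diabetic, 4.75, 3.66 and 2.92 CPM in Hif1a+/- non-diabetic, and 6.63, 6.87 and 12.24 CPM in Hif1a+/- diabetic LVs. The diabetic Hif1a+/- samples were above every sample except Wt diabetic animal 7. The log2 difference in Hif1a+/- was 1.17 ± 0.28 (SE), with an adjusted p of 0.214 by edgeR and 0.0132 by DESeq2, and it was 0.83 without animal 77. Over the 4 groups together DESeq2 called Timp1, Adamtsl3 and Adamtsl4, beside 0.760% of all genes, and 8 of 48 members, 16.7%, had an unadjusted edgeR p under 0.05 against 6.0% of all genes. Adamtsl5 and Adamtsl2 had highest samples in single animals, 208.8 CPM in Wt diabetic animal 7 and 36.44 CPM in Hif1a+/- diabetic animal 72. Adamtsl1 averaged 1.11 CPM.

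In the ADAMTS class, Adamts2, an enzyme that removes the amino-terminal propeptide of fibrillar procollagens, had the highest CPM. Per kilobase of longest transcript it was at 4.68, below Adamts10 at 6.93, Adamts1 at 6.67 and Adamts7 at 5.38. It was at 31.57, 33.15 and 31.06 CPM in Wt non-diabetic, 26.48, 32.86 and 30.05 CPM in Wt diabetic, 31.24, 30.98 and 38.72 CPM in Hif1a+/- non-diabetic, and 37.83, 37.67 and 46.56 CPM in Hif1a+/- diabetic LVs. The last group lay above both Wt groups and overlapped Hif1a+/- non-diabetic animal 44. Hif1a+/- against Wt after diabetic pregnancy gave a log2 difference of 0.45 ± 0.12 (SE), with an adjusted p of 0.822 by edgeR and 0.259 by DESeq2. In that contrast 8 of 48 members, 16.7%, had an unadjusted p under 0.05, against 5.35% of all genes. Without animal 72 there were 8 of 49, against 4.28% of all genes, with Mmp3 in place of Mmp11.

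The aggrecanase genes did not share a pattern. Adamts4 was at 1.31, 2.00 and 1.43 CPM in Wt non-diabetic, 0.42, 0.85 and 0.06 CPM in Wt diabetic, 0.58, 1.13 and 1.61 CPM in Hif1a+/- non-diabetic, and 1.75, 1.06 and 0.80 CPM in Hif1a+/- diabetic LVs. The Wt diabetic samples were below all Wt non-diabetic ones, with a log2 difference of -1.7 ± 0.55 (SE) and an adjusted p of 1 by edgeR and DESeq2, or -1.28 without animal 80. Adamts5, the main aggrecanase of mouse cartilage, was at 44.48, 31.42 and 34.50 CPM in diabetic Hif1a+/- against 27.77, 25.52 and 18.81 CPM in non-diabetic Hif1a+/- LVs, a difference of 0.62 ± 0.24 (SE) with an adjusted p of 0.362 by edgeR and 0.237 by DESeq2. Wt diabetic samples ranged from 17.30 to 37.02 CPM, across most of that span. Adamts7 and Adamts10 had group means of 24.5 to 31.2 CPM and 27.6 to 29.3 CPM.

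Adamts1, another proteoglycan-cleaving member, was at 27.52, 31.51 and 22.31 CPM in Wt non-diabetic and 39.31, 69.71 and 27.77 CPM in Wt diabetic LVs. The groups overlapped, and the log2 difference of 0.76 ± 0.28 (SE), with an adjusted p of 1 by edgeR and DESeq2, was 0.31 without animal 7. That animal stood out in several members. Among members above 10 CPM, 5 had a highest sample more than 3 times the lowest, namely Timp4, Timp3, Adamts9, Adam19 and Adamts1, and in 4 of these the highest sample was Wt diabetic animal 7. Adamts9, singled out after its values were seen, was at 42.33 CPM there against 19.01 and 12.23 CPM in the other animals of that group. Timp3 was at 199.6 CPM in that animal and Timp4 at 21.90 CPM. The exception, Adam19, was at 37.94 CPM in animal 7 and reached its highest values, 48.52 to 59.33 CPM, in Wt non-diabetic animals 42 and 89 and Hif1a+/- non-diabetic animals 32 and 44. Whether these animals shared a litter or a handling step cannot be told from the labels.

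**Figure D4:**
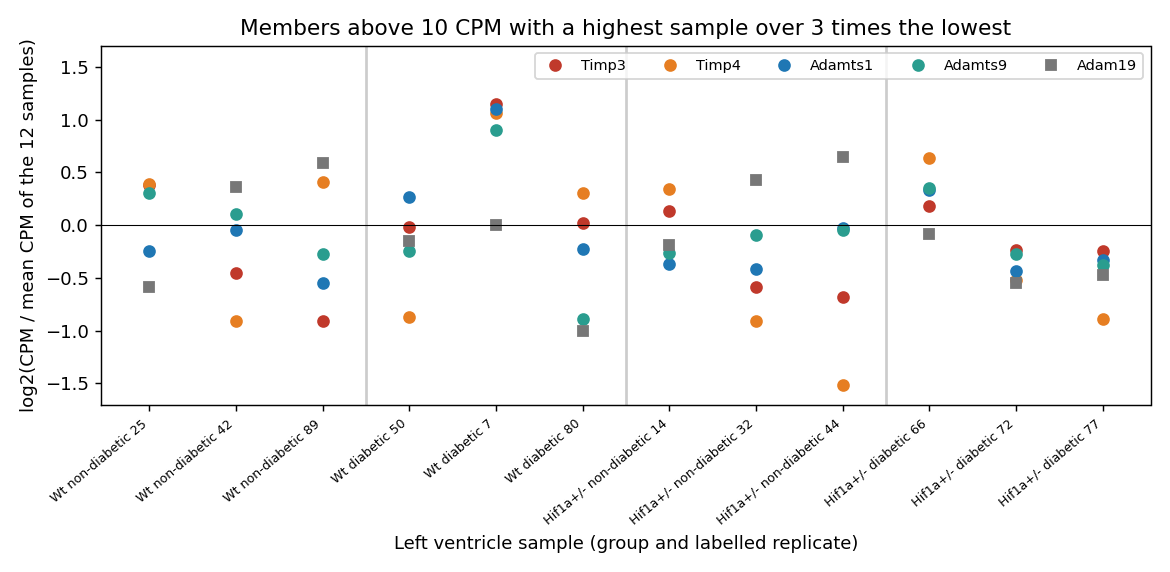
Log2 of the CPM of Timp3, Timp4, Adamts1, Adamts9 and Adam19 in each LV relative to the mean of the gene over the 12 samples, with vertical lines between groups. Wt diabetic animal 7 was the highest sample for 4 of the 5 genes, and Adam19 was highest in Hif1a+/- non-diabetic animal 44, at 59.33 CPM.

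The ADAM class was the steadiest. Adam9, Adam10, Adam15 and Adam17 had group means of 67.5 to 72.6, 58.1 to 64.6, 67.5 to 80.9 and 63.5 to 70.5 CPM. Adam15 was at 74.10, 96.75 and 71.82 CPM in Wt diabetic against 71.05, 66.75 and 67.60 CPM in Wt non-diabetic LVs, a log2 difference of 0.24 ± 0.10 (SE) with an adjusted p of 1 by edgeR and DESeq2. Adam19, a sheddase needed for heart valve development, had means of 43.5, 30.2, 47.8 and 29.6 CPM in the 4 groups with SDs of 16.4, 10.1, 13.3 and 5.38 CPM. Its log2 difference in Hif1a+/- was -0.68 ± 0.30 (SE), with an adjusted p of 0.405 by edgeR, and the groups overlapped through non-diabetic animal 14. Adam8, a leukocyte ADAM, was at 2.47, 0.84 and 0.88 CPM in diabetic and 0.66, 0.79 and 0.65 CPM in non-diabetic Hif1a+/- LVs, and its log2 difference of 1.05 ± 0.43 (SE) was 0.30 without animal 66. Adam11 and Adam23, which lack protease activity, averaged 25.5 and 4.56 CPM. Adam23 had the second smallest p among members for genotype after non-diabetic pregnancy, at -0.32 ± 0.19 (SE) on the log2 scale with an adjusted p of 1 by edgeR.

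By class, the median log2 difference between diabetic and non-diabetic pregnancy in Hif1a+/- was 0.35 for TIMPs, 0.35 for secreted MMPs, 0.41 for ADAMTS-like, 0.18 for membrane-type MMPs, 0.08 for ADAMTS and 0.00 for ADAM genes, beside -0.01 over all genes tested. Of the 48 members, 32 were higher and 16 lower, 66.7% higher against 49% of all genes. In Wt the medians were 0.16, -0.03, 0.12, -0.18, -0.03 and -0.09 in the same order, beside 0.01 over all genes, with 23 of 48 members higher. The TIMP median rested on 4 genes, and was smaller than the SD between replicates of the class median, 0.371. For Hif1a+/- against Wt after diabetic pregnancy, the 7 secreted MMPs tested had log2 differences of 0.03 to 0.85 with a median of 0.22, and 47.9% of all genes were higher. Without animal 72, Mmp28 was at -0.07 and Mmp9 at 0.30. For diabetic Hif1a+/- against non-diabetic Wt, 27 of 48 members were higher and the medians ran from -0.05 for membrane-type MMPs to 0.31 for secreted MMPs. In that contrast 8 members, 16.7%, had an unadjusted p under 0.05 against 8.85% of genes, 11 lay with all 3 samples above, 22.9% against 7.47%, and 1, Adam1a, with all 3 below, 2.08% against 7.11%.

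**Figure D5:**
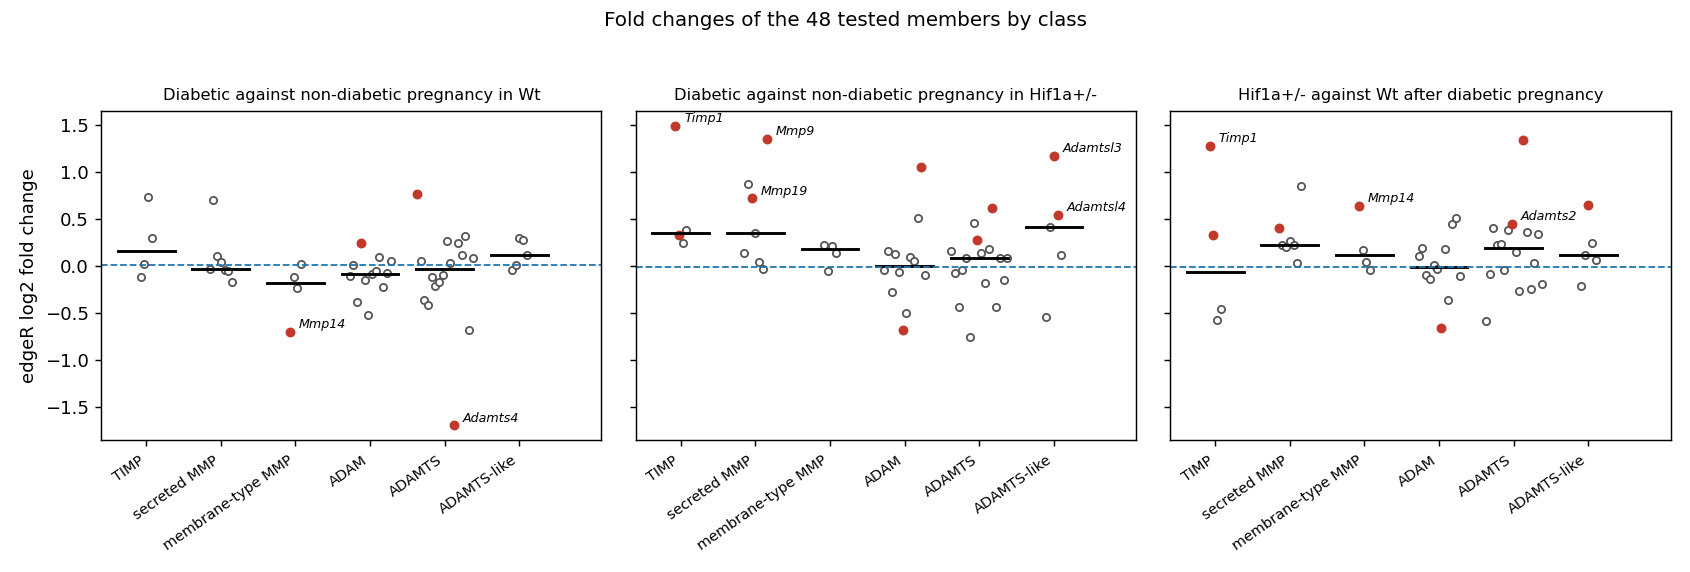
edgeR log2 differences of the 48 tested members by class in 3 comparisons, with filled red points for an unadjusted p under 0.05, open points for the rest, names at an unadjusted p under 0.01, black lines for class medians and a dashed line for the median of all genes tested. In Hif1a+/- the class medians after diabetic pregnancy lay between 0.00 for ADAM and 0.41 for ADAMTS-like genes.

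Summed levels, which the most abundant genes of a class dominate, did not always follow the medians. Membrane-type MMP transcripts had mean sums of 198 CPM in non-diabetic and 194 CPM in diabetic Hif1a+/- LVs, beside a median log2 difference of 0.18. ADAMTS-like transcripts summed to 224 to 237 CPM in Wt non-diabetic, 215 to 323 CPM in Wt diabetic, 226 to 239 CPM in Hif1a+/- non-diabetic and 268 to 299 CPM in Hif1a+/- diabetic LVs. The diabetic Hif1a+/- sums were above both non-diabetic groups, and the Wt diabetic sums spanned them. TIMP transcripts summed to 196 to 263, 215 to 340, 195 to 246 and 235 to 288 CPM in the same order, and their mean was higher after diabetic pregnancy in both genotypes, 275 against 220 CPM in Wt and 266 against 214 CPM in Hif1a+/-. The ratio of the TIMP sum to the sum of both MMP classes was 0.703 ± 0.187, 0.921 ± 0.242, 0.663 ± 0.130 and 0.753 ± 0.104 (SD, n = 3), with overlap between all groups. ADAM transcripts summed to 308 to 378 CPM over all samples.

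Markers of some other cell types were higher in diabetic than in non-diabetic Hif1a+/- LVs, and others overlapped or were lower. The 8 adventitial and epicardial markers summed to 243 to 446 CPM in diabetic Hif1a+/- LVs and to 123 to 161 CPM in the other 9 samples. DESeq2 called 3 of them, Pi16, Clec3b and Cd248, in the contrast with non-diabetic Hif1a+/- LVs, beside 1.44% of all genes. Of the 7 tested by edgeR, 6 were higher in that contrast, and 4 were higher against diabetic Wt. The 8 macrophage markers summed to 280 to 447 CPM in diabetic against 138 to 210 CPM in non-diabetic Hif1a+/- LVs, with 183 to 255 CPM in Wt non-diabetic and 195 to 327 CPM in Wt diabetic LVs. Between the Hif1a+/- groups all 8 were higher, 7 at an unadjusted edgeR p under 0.05, against 12.0% of all genes. DESeq2 called Mrc1, C1qa and C1qb there. Fibroblast markers summed to 1500 to 2150 CPM and 1480 to 1640 CPM in diabetic and non-diabetic Hif1a+/- LVs, which overlapped. All 8 were higher in the diabetic group, 2 at an unadjusted edgeR p under 0.05, and DESeq2 called 0. Smooth muscle and pericyte markers summed to 899 to 994 CPM and 1010 to 1110 CPM in the same groups, and DESeq2 called 1 of these 7, Myh11, lower. The study also lists the markers called here as changed on these samples, so these calls are not independent evidence. No marker of these 4 lists was under 10 reads in every sample, and their part in the levels of Timp1, Mmp9, Mmp19, Adamtsl3 and Adamtsl4 was not tested. In whole LV, more cells of a type and more RNA per cell cannot be told apart.

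Other genes of the pathway were also among the DESeq2 calls. The study also lists every pathway gene called below as changed on these samples, so these calls are not independent evidence. edgeR called 0 of the pathway genes tested at an adjusted p under 0.1 in any pairwise comparison or the interaction. Of 20 matrix substrates tested, DESeq2 called Vwf, the substrate of ADAMTS13, higher in diabetic than non-diabetic Hif1a+/- LVs, at 0.81 ± 0.21 (edgeR log2 difference, SE). In that contrast DESeq2 called 1.44% of all genes. After diabetic pregnancy it called Fbn1 and Col3a1 higher in Hif1a+/- than in Wt, at 1.06 ± 0.16 and 0.91 ± 0.25 (SE), beside 0.155% of all genes. At an unadjusted edgeR p under 0.05, 8 of the 20 substrates were higher there and 1 was lower, against 5.35% of all genes. Col3a1 was at 198.4, 222.5 and 246.5 CPM in Wt diabetic and 275.1, 560.6 and 422.2 CPM in Hif1a+/- diabetic LVs, with animal 72 the highest. Fbn1, fibrillin 1, the microfibril protein that ADAMTS-like proteins bind, was at 47.15, 73.59 and 56.33 CPM in Wt diabetic and 117.6, 107.4 and 145.2 CPM in Hif1a+/- diabetic LVs. Every Wt diabetic sample was below the other 9 for Fbn1, as for Mmp14.

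Of 14 other inhibitors and clearance genes tested, DESeq2 called Pcolce, an enhancer of procollagen C-proteinase, and Lrp1, the receptor that clears MMP, ADAMTS and TIMP proteins. Both calls were in diabetic against non-diabetic Hif1a+/- LVs, where DESeq2 called 1.44% of all genes. Their log2 differences were 0.45 ± 0.11 and 0.56 ± 0.16 (SE). Of 18 shed membrane proteins tested it called Axl, a receptor released by ADAM10 and ADAM17, in the same contrast, at 0.69 ± 0.15 (SE). Of 16 activators and cofactors, among them Furin, it called 0 in any pairwise comparison or the interaction. Between diabetic and non-diabetic Hif1a+/- LVs edgeR gave 1 of these an unadjusted p under 0.05, against 12.0% of all genes.

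Reads of some members could not be separated from those of genes on the other strand, since the strand setting of the counting is not given in the sources used here. Mmp11, with 2900 reads over the 12 samples, overlaps Chchd10 with 245041 reads, and Mmp19 with 908 reads overlaps Tmem198b with 1875. Timp1, with 679 reads, lies inside Syn1, which had 130, and Timp4, with 3116, inside Syn2, which had 1805. Between diabetic and non-diabetic pregnancy in Hif1a+/-, Tmem198b differed by 0.03 ± 0.18 and Syn1 by 0.24 ± 0.39 (log2, SE).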

How the data were processed

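LV RNA of 12 mice was sequenced from 3′-end libraries. Per the methods, the authors trimmed the reads with Trimmomatic, removed ribosomal reads, aligned them with STAR 2.5.2b to GRCm38 and counted them per gene with HTSeq. The deposited values are raw counts per gene, and rows that name no gene, which held 20.2 to 24.2% of the counts in each file, were left out. Counts divided by size factors, also deposited, were not used here. Groups and animal numbers came from the labels. Members and gene lists were chosen with earlier results of these data known.

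All 12 samples entered 1 quasi-likelihood fit in edgeR 4.0.16 (R 4.3.3) with TMM scaling, a filter on low counts by group and Benjamini-Hochberg adjustment over 14706 genes, with a threshold of 0.1. DESeq2 1.42.0 and limma 3.58.1 (voom) were alternatives, beside other filters, scalings and leaving out each sample. The fit was tested on simulated counts. Leaving out samples with DESeq2 was added after the data were seen. Total counts were 16132442 to 39812939 per sample. The common dispersion of the fit, as a biological coefficient of variation between animals, was 13.7%. The 3 samples of a group are separate animals, whose litters are not given.

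Described by name were all TIMPs and MMPs, the 5 most abundant genes of each other class, the 3 smallest p in each comparison, members with an adjusted p under 0.1, those the study lists, and members nearest the count rule. Adam8, Adam11, Adam1a, Adam33, Adamts9 and Adamts17 were named after their values were seen. Promoters came from RefSeq on GRCm38.p6. Not every gene that overlaps a member is reported here.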

Additional observations from a re-analysis of the deposited data

How the results depend on the processing

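Animals could not be paired or grouped by litter, because the labels do not give the litters. Settings for members called, by edgeR at an adjusted p under 0.1 unless named, moved 15 of 131 counts. With no filter on low counts edgeR called, of 49 members and beside the share of all genes, 5 for diabetic against non-diabetic pregnancy in Wt (0.476%) and 7 in Hif1a+/- (2.19%), 7 for genotype after diabetic pregnancy (0.812%), 6 for diabetic Hif1a+/- against non-diabetic Wt (1.64%), 3 in the interaction (0.288%) and 12 over the 4 groups (2.54%), against 0 with the filter. DESeq2 called 5 for pregnancy in Hif1a+/-, 1 for genotype after diabetic pregnancy, 2 for diabetic Hif1a+/- against non-diabetic Wt and 3 over the 4 groups. For pregnancy in Hif1a+/- limma-voom called 7 beside 6.37% of all genes, and edgeR on the compared groups alone called 1 beside 0.708%. Leaving out 1 sample at a time gave 0 to 1 in that contrast by edgeR. By DESeq2 it gave 0 to 1 for pregnancy in Wt, 1 to 6 in Hif1a+/-, 0 to 4 for genotype after diabetic pregnancy, 0 to 3 for diabetic Hif1a+/- against non-diabetic Wt, 0 to 1 in the interaction and 1 to 5 over the 4 groups. The cause was not tested.

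Class medians moved by more than the replicate SD in 20 of 504 settings. The membrane-type MMP median of the interaction was 0.12 with log2(CPM + 1), against 0.29. Leaving out 1 sample gave, for pregnancy in Wt, ADAMTS -0.21 to 0.04 and ADAMTS-like -0.16 to 0.25. For pregnancy in Hif1a+/- it gave TIMP 0.22 to 0.83, ADAMTS-like 0.17 to 0.44 and membrane-type MMP 0.02 to 0.26. For genotype after diabetic pregnancy it gave ADAM -0.14 to 0.07, ADAMTS 0.02 to 0.34, ADAMTS-like 0.01 to 0.31 and secreted MMP 0.09 to 0.50. For diabetic Hif1a+/- against non-diabetic Wt it gave ADAM -0.15 to -0.01 and ADAMTS -0.03 to 0.20. For the interaction it gave ADAMTS -0.11 to 0.39, membrane-type MMP 0.11 to 0.42 and secreted MMP 0.05 to 0.49. Of 408 settings for single genes, 375 kept direction and side of the threshold and 33 passed it. Genes with few reads, such as Adamts4 and Mmp3, are limited by depth.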

Other observations

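Of the 83 family genes, 34 did not meet the count rule. Of these, 15 were at 0 in all 12 samples, which allows a level of up to 0.0108 CPM over the 278861498 counts together, from counting error only, and 19 had at least 1 read. The highest count of any of them in a sample was 11, for Mmp27. Mmp12, the macrophage elastase gene, reached 9 reads, although macrophage markers were detected in every sample.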
